A study of Homo sapiens with 27 samples.

Results

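The unfolded protein response and endoplasmic reticulum (ER) chaperone genes were followed through RNA Frac-Seq of TPR-depleted cells. The 10 genes HSPA5, HSP90B1, CALR, DNAJB9, SDF2L1, MANF, PDIA4, PDIA6, HERPUD1 and XBP1 were chosen by name, each by its gene identifier, out of 34464 genes with an FPKM (fragments per kilobase of transcript, scaled to the sequencing depth of the library). All 10 were present in every library and passed the filter on low values, a mean above 1 FPKM, as did 14611 genes in all.

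Secretory and membrane proteins fold in the ER with the help of chaperones, co-chaperones and protein disulphide isomerases. When unfolded proteins build up there, the sensors ATF6, IRE1 and PERK start the unfolded protein response, which raises the transcription of these folding factors and of the machinery that removes misfolded proteins. IRE1 also splices the XBP1 mRNA in the cytoplasm to give an active transcription factor. The mRNAs of the folding factors themselves carry signal sequences and are translated on the ER, whose membrane is continuous with the outer nuclear membrane.

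U2OS cells, a human osteosarcoma line, received by lentivirus a control shRNA or either of the shRNAs TPR A and TPR D, which target TPR, a protein of the basket on the nuclear side of the nuclear pore. After 5 days the cells were lysed with detergent and separated into a nuclear and a cytoplasmic/ER fraction, while 10% of the cells were kept as the total fraction. Each of the 3 shRNAs had 3 biological replicates, and each gave a library of poly(A)+ RNA per fraction, 27 libraries in 9 groups. The labels name no ER stressor in any group. A lower share of a gene in the RNA and less of its RNA per cell cannot be told apart. The labels number the replicates without tying them to separate cultures, so the p-values measure the spread between these samples.

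The targeted gene followed the labels. TPR in the total fraction was 26.4 ± 1.57 FPKM (SD, n = 3) with control shRNA, 4.17 ± 0.654 with TPR A and 4.66 ± 1.39 with TPR D, a log2 difference of -2.59 (SE 0.36, limma adjusted p = 0.0012) and -2.44 (SE 0.36, limma adjusted p = 0.0016). In control replicate 2 the library labelled nuclear drew 21.8% of its FPKM from mitochondrial genes and correlated best with the total libraries, and the library labelled total drew 0.738% and correlated best with the nuclear ones. The other 8 nuclear libraries held 0.774 to 2.42% and the other 8 total libraries 15.8 to 24.7%. The labels were kept, and values without this replicate stand beside the results that it moves. The estimated reads behind a gene in a library ranged from 275 for DNAJB9 to 144112 for CALR.

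The promoters of the group are shown first, since several of them carry elements of the ER stress response. The ER stress response element (ERSE) is bound by ATF6 together with NF-Y and reads CCAAT, 9 bases of any kind, and CCACG. In the RefSeq promoters of GRCh38.p14, each 250 bases before to 50 bases after a transcription start, it was found on either strand in 27 of 35116 promoters (0.0769%) and in 5 of the 13 promoters listed for the 10 genes. The parts of the element are in capitals, and each run is 5′ to 3′ on the strand named. Here and below the coordinates cover the whole run with its flanking bases, and the distances to the start cover the element alone.
HSPA5, chr9:125241386-125241414, minus strand, 66 to 48 bases before the start: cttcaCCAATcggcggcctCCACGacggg
HSP90B1, chr12:103930211-103930239, plus strand, 194 to 176 bases before the start: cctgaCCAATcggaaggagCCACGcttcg
HSP90B1, chr12:103930316-103930344, minus strand, 89 to 71 bases before the start: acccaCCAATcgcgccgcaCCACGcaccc
CALR, chr19:12938379-12938407, minus strand, 225 to 207 bases before the start: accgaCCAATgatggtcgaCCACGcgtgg
PDIA6, chr2:10812848-10812876, minus strand, 86 to 68 bases before the start: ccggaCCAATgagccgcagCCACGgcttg
XBP1, chr22:28800598-28800626, minus strand, 52 to 34 bases before the start: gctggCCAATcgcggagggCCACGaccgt
The HSP90B1 promoter held the element in both orientations, and in CALR it lay in reverse to the gene. Of 80 genes with a listed promoter in the 7 other lists used below, cytosolic and mitochondrial chaperones included, 3 held it, CANX, CRELD2 and ERO1B.

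A second element, ERSE-II, reads ATTGG, 1 base of any kind, and CCACG. It was found in 19 of 35116 promoters (0.0541%), 2 of them of the 10 genes.
HERPUD1, chr16:56932020-56932040, plus strand, 117 to 107 bases before the start: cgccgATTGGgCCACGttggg
SDF2L1, chr22:21642109-21642129, minus strand, 188 to 178 bases before the start: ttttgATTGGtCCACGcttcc
No match of either element overlapped another. The letters TGACGTGG, a form of the element bound by XBP1 and ATF6, were in 256 promoters (0.729%) and in none of these 13. Of the 80 genes of the other lists 8 held it, and 1, HYOU1, held ERSE-II. DNAJB9, MANF and PDIA4 thus held none of the 3 letter strings in these windows. The matches are descriptions of sequence in genes chosen as members of this response. Their share beside that of all promoters is therefore no test of enrichment, and binding was not measured.

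On GRCh37, the build of the deposited annotation, the genes ran from SDF2L1 at chr22:21996591-21998588 with 3 exons and an mRNA of 825 nt to PDIA6 at chr2:10923517-10978103 with a median of 14 exons over its transcripts. HSP90B1 has 18 exons. Their pre-mRNAs were mostly short: 8 of the 10 lay below 22871 nt, the median of 12333 protein-coding genes tested. Mature mRNA length ranged from 825 nt for SDF2L1 to 3825 nt for HSPA5, around a median of 1930.5 nt for all. Lengths and exon numbers are medians over the annotated transcripts of a gene, 9 for HERPUD1. Which of these transcripts the cells express was not determined. HERPUD1 overlaps 2 long non-coding genes on its own strand, to which its reads could be split, and HSP90B1 (UQCC6), PDIA6 (ATP6V1C2) and CALR overlap genes on the other strand.

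In control cells the mRNAs of 4 folding factors were at least 1.86 times higher in the nuclear than in the cytoplasmic/ER fraction. DNAJB9 (1.39 times) and CALR (1.16 times) followed, and the other genes lay near equal levels or lower. HSP90B1 and HSPA5 were 4.19 and 3.57 times higher in the nuclear fraction, PDIA4 2.38 and PDIA6 1.86 times, and SDF2L1 was 0.559 times its cytoplasmic/ER level. With limma on all 27 libraries, 4 of 10 members passed an adjusted p of 0.05 towards the nuclear fraction, where 20.2% of all genes tested did, and 1 towards the cytoplasmic/ER fraction, where 19.2% did. Without control replicate 2 the same 4 passed (15.6% of all genes) and SDF2L1 did not. The median log2 ratio of nuclear to cytoplasmic/ER levels (N/C ratio) was 0.34 over the 10 and -0.01 over all genes, and 0.59 over the 10 and -0.01 over all genes without control replicate 2. Each library was scaled by its median ratio, which holds the median over all genes near equal levels. The ratios are thus relative to the median gene.

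HSP90B1 encodes GRP94, the HSP90 chaperone of the ER. In control cells its nuclear level was 744, 495 and 597 FPKM in replicates 1 to 3, and its cytoplasmic/ER level 114, 166 and 171 FPKM. The log2 N/C ratio was 2.74, 1.62 and 1.83, a mean of 2.07 (limma SE 0.33, adjusted p = 8.02e-05). All nuclear libraries were above all cytoplasmic/ER libraries, as in 24.7% of all genes. Without replicate 2 the mean was 2.29 (limma adjusted p = 0.000467). In TPR A cells the ratio was 2.07, 2.71 and 1.46, and in TPR D cells 2.21, 2.54 and 2.11. The lowest of the 9 replicates, 1.46, was thus still above 0.

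HSPA5 encodes BiP, the HSP70 chaperone of the ER that also binds the stress sensors. Its control level was 508, 240 and 505 FPKM in the nuclear libraries and 83.5, 123 and 142 FPKM in the cytoplasmic/ER libraries. Replicate 2, whose nuclear library resembles total RNA, had the lowest nuclear level. The log2 N/C ratio of 2.63, 1.01 and 1.86 averaged 1.83 (limma SE 0.39, adjusted p = 0.000969), and 2.25 without replicate 2 (limma adjusted p = 0.000356). With TPR A it was 1.81, 2.19 and 1.98, and with TPR D 2.21, 1.998 and 2.13, so that the TPR-depleted replicates spread less than the control ones.

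PDIA4 and PDIA6, disulphide isomerases of the ER, had the same direction at a smaller size. PDIA4 was at 258, 139 and 232 FPKM in control nuclear libraries and at 78.1, 93.4 and 91.4 FPKM in the cytoplasmic/ER ones, a log2 N/C ratio of 1.25 (limma SE 0.27, adjusted p = 0.000942). PDIA6 was at 632, 409 and 575 FPKM against 251, 314 and 316 FPKM, a log2 ratio of 0.90 (limma SE 0.21, adjusted p = 0.00225). Without replicate 2 the ratios were 1.56 (limma adjusted p = 0.000824) and 1.13 (limma adjusted p = 0.00195). Within the sets in which the labels are written, replicates 2 and 3 alone gave 1.00 for PDIA4 (limma adjusted p = 0.0513) and 0.66 for PDIA6 (limma adjusted p = 0.107). That set includes control replicate 2. Replicate 1 alone gave 1.75 and 1.36.

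CALR encodes calreticulin, a lectin chaperone, and was the most abundant of the 10. Its control nuclear libraries held 1788, 814 and 1451 FPKM and the cytoplasmic/ER libraries 1146, 1254 and 1012 FPKM. Only replicate 2 was lower in the nuclear library. The log2 N/C ratio was 0.22 (limma SE 0.27, adjusted p = 0.543), and 0.61 without replicate 2 (limma adjusted p = 0.0679). In TPR A and TPR D cells it was 0.74 (limma adjusted p = 0.0411) and 0.86 (limma adjusted p = 0.0165).

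SDF2L1, a co-chaperone of the HSP40 proteins that act on BiP, was the member nearest to the cytoplasmic/ER fraction. Its control nuclear libraries held 110, 71.5 and 69.9 FPKM and its cytoplasmic/ER libraries 159, 190 and 113 FPKM, which did not overlap, as in 24% of all genes with the nuclear libraries lower. The log2 N/C ratio was -0.49, -1.36 and -0.66, with a mean of -0.84 (limma SE 0.27, adjusted p = 0.0154), and -0.58 without replicate 2 (limma adjusted p = 0.134). With TPR A it was 0.14, 0.23 and -0.30, and with TPR D -0.20, -0.18 and -0.22.

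DNAJB9, the HSP40 co-chaperone ERdj4, was the least abundant. It was at 8.62, 7.09 and 6.48 FPKM in control nuclear and 5.49, 5.97 and 4.82 FPKM in control cytoplasmic/ER libraries, a log2 N/C ratio of 0.47 (limma SE 0.27, adjusted p = 0.177), and 0.56 without replicate 2. All its control nuclear libraries lay above all its control cytoplasmic/ER libraries, as in 24.7% of all genes. In TPR D cells the ratio was 0.74 (limma adjusted p = 0.0428). XBP1, whose FPKM sums the spliced and unspliced forms, had a log2 N/C ratio in control cells of 0.48, -0.64 and 0.28, whose mean of 0.04 became 0.38 without replicate 2. HERPUD1, a membrane protein of ER-associated degradation, kept the narrowest range of the 10, from -0.26 to 0.21 over all 9 replicates. MANF, a secreted ER-resident factor that binds BiP, ranged from -0.77 to 0.43.

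**Figure D1:**
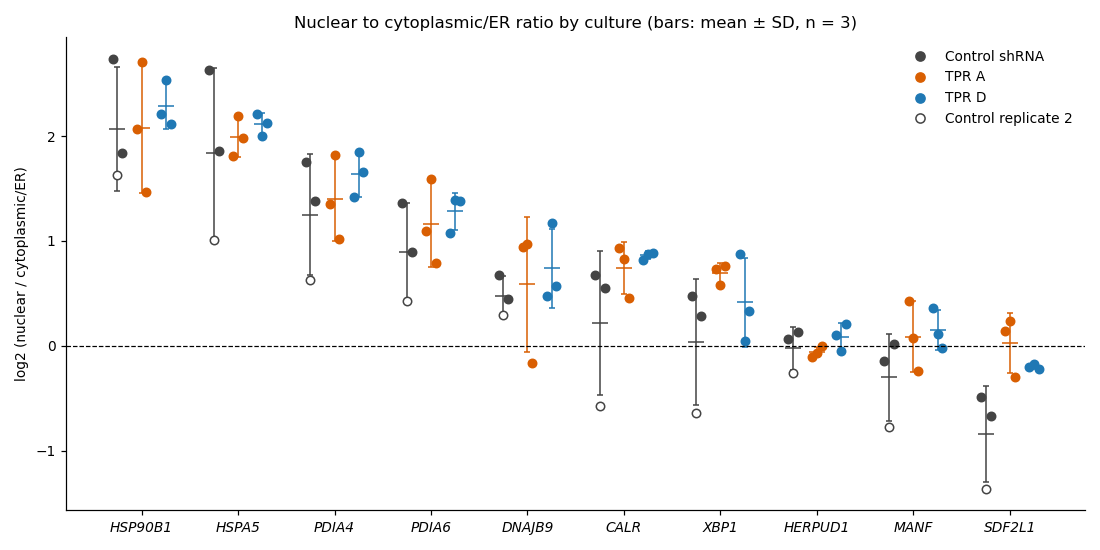
The log2 ratio of nuclear to cytoplasmic/ER level is plotted for each gene, with a point for each of 3 replicates per shRNA and bars for the mean ± SD. HSP90B1, HSPA5, PDIA4 and PDIA6 lie above 0 in all 9 replicates, and control replicate 2 (open points) is the lowest control point in all 10 genes.

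In TPR A cells 5 of the 10 genes passed towards the nuclear fraction (15.2% of all genes) and none towards the cytoplasmic/ER fraction (13.2%). In TPR D cells 6 passed towards the nuclear fraction (17.1%) and none towards the cytoplasmic/ER fraction (14.6%). The 4 genes called in control cells were called under both TPR shRNAs, with CALR in both and DNAJB9 in TPR D cells. Without control replicate 2, XBP1 was a further call in TPR A cells, at a log2 ratio of 0.69 (limma adjusted p = 0.032), the fit then having another estimate of the spread.

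The order of the N/C ratios followed the annotated length of the mature mRNA, the median over the transcripts of a gene. The longest, HSPA5 at 3825 nt, HSP90B1 at 2782 nt, PDIA4 at 2767 nt, DNAJB9 at 2409 nt and PDIA6 at 2344 nt, held the 5 highest ratios in control cells, and the shortest, MANF at 909 nt, HERPUD1 at 844 nt and SDF2L1 at 825 nt, the 3 lowest. When control replicate 2 was left out, CALR, at 1661 nt and a ratio of 0.61, stood above DNAJB9 at 0.56. Spearman's rho across the 10 genes was 0.95 in control cells, 0.89 in TPR A cells and 0.93 in TPR D cells. Across 12333 protein-coding genes it was 0.40, 0.30 and 0.30, and across 65 other genes of the ER and unfolded protein response lists 0.54, 0.36 and 0.40. In control cells without replicate 2 the values were 0.92 across the 10, 0.36 across protein-coding genes and 0.48 across the other list genes. These are descriptions across genes measured in the same libraries, which are not independent replicates. For pre-mRNA length rho was 0.70 across the 10 in control cells and 0.37 across all, and 0.71 and 0.30 without replicate 2.

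**Figure D2:**
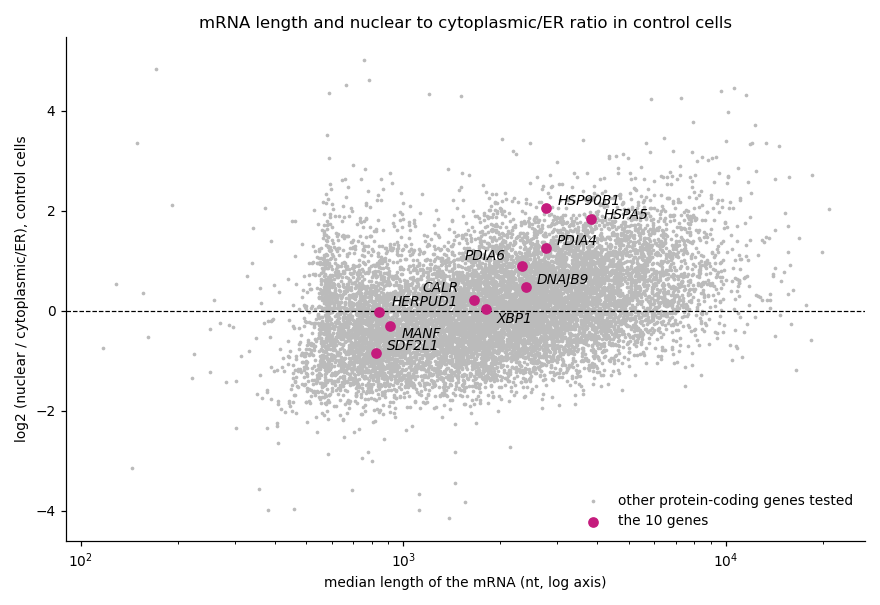
Each protein-coding gene tested is a grey point, at the median length of its mRNA (log axis, nt) and its log2 N/C ratio in control cells, and the 10 genes are larger points with names. The 10 run from SDF2L1 at 825 nt and -0.84 to HSPA5 at 3825 nt and 1.83.

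The N/C ratios of the other lists in control cells are to be read beside the shares of all genes called, 20.2% towards the nuclear and 19.2% towards the cytoplasmic/ER fraction, and differences between lists were not tested. Of 12 other ER chaperones and co-chaperones, 6 were called towards the nuclear fraction in control cells and none towards the cytoplasmic/ER fraction, among them CANX at a log2 ratio of 1.60 (calnexin, the membrane relative of CALR), SEC63 at 1.42 and HYOU1, the large HSP70-like nucleotide exchange factor, at 1.18. Of 10 other disulphide enzymes 4 were called towards the nuclear fraction, led by PDIA3 at 1.40. Of 14 genes of ER-associated degradation 4 were called so, with EDEM3 at 1.74 and SEL1L at 1.67. Of 7 sensors and processing enzymes 4 were, with EIF2AK3 (PERK) at 1.35 and ATF6 at 1.25. The calls towards the nuclear fraction were 6, 4, 4 and 3 without control replicate 2 in these lists, and 1 gene of ER-associated degradation was called towards the cytoplasmic/ER fraction, where 15.6% and 14.2% of all genes were.

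The translocon and signal peptidase genes, which bring proteins into the ER, and the PERK-ATF4 genes had medians below 0. Of 13 translocon and signal peptidase genes 5 were called towards the cytoplasmic/ER fraction and 1 towards the nuclear one, with SEC11C at -1.23, SSR4 at -1.14 and SEC62 at 1.09. Without control replicate 2, 1 of the 13 was called towards the cytoplasmic/ER fraction and 2 towards the nuclear one. Of 9 PERK-ATF4 genes 2 were called towards the cytoplasmic/ER fraction, ATF4 at -1.30 and TRIB3 at -1.03, the latter not without control replicate 2 (-0.96, limma adjusted p = 0.0675), where ASNS, at 0.83, was then called towards the nuclear fraction (limma adjusted p = 0.0453). The 20 cytosolic and mitochondrial chaperones, whose proteins are not made on the ER, had 8 calls towards the nuclear fraction, such as HSPH1 at 1.55, HSP90AA1 at 1.47 and HSPA9 at 1.26, and 2 towards the cytoplasmic/ER fraction. With control replicate 2 left out 9 were called towards the nuclear fraction, and both calls towards the cytoplasmic/ER fraction were lost. The list medians were 0.69 for the chaperones, 0.50 for the disulphide enzymes, 0.21 for degradation, 0.76 for the sensors, -0.50 for the translocon, -0.29 for PERK-ATF4 and 0.57 for the cytosolic and mitochondrial chaperones, beside -0.01 for all genes. In the same order, they were without control replicate 2 0.91, 0.59, 0.35, 0.73, -0.27, -0.15 and 0.79.

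**Figure D3:**
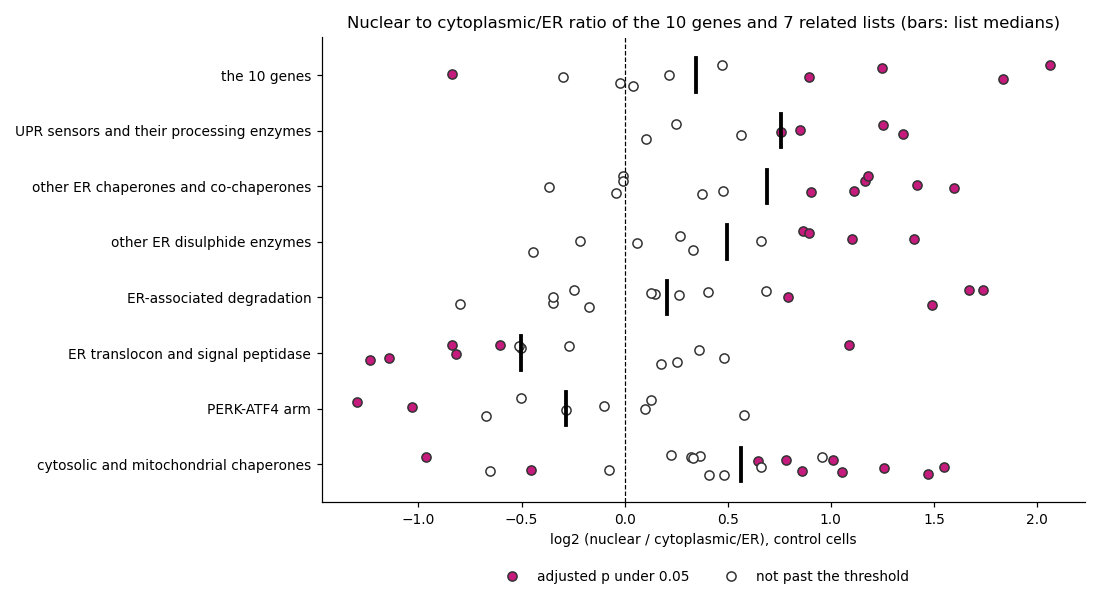
Each point is a gene at its log2 N/C ratio in control cells, by list, filled where the limma adjusted p was under 0.05, with a bar at the list median (vertical scatter has no meaning). The median of the 10 genes is 0.34, and that of the translocon and signal peptidase list is -0.50.

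In the total fraction no member passed the threshold with either TPR shRNA. With TPR A 0 of 10 were called by limma (2 at an unadjusted p under 0.05), and 0.821% of all genes were. With TPR D 0 of 10 were called (1 at an unadjusted p under 0.05), and 0.753% of all genes were. The median log2 difference from control was -0.38 and -0.22 over the 10 and -0.01 in both over all genes. Leaving out control replicate 2 moved it to -0.14 and 0.04. A fit that added the replicate numbers as blocks called 378 genes with TPR A in place of 120, again with no member.

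The order of levels in the control total fraction was CALR (1136 ± 456 FPKM, SD, n = 3), HSP90B1 (485 ± 166), PDIA6 (456 ± 94.4), HSPA5 (312 ± 219), PDIA4 (169 ± 43.8), SDF2L1 (104 ± 43.6), XBP1 (82.3 ± 53.8), MANF (69.2 ± 22.6), HERPUD1 (67.7 ± 14.2) and DNAJB9 (6.16 ± 1.25). CALR and HSP90B1, and HERPUD1 and DNAJB9, were farther apart than the sum of their SDs, and the other neighbours were not. Without replicate 2 the order changed: PDIA6 (402 FPKM) stood above HSP90B1 (391), HERPUD1 (68.1) above MANF (56.8) and XBP1 (51.5), and HSPA5 was at 186. In 8 of the 10 genes control replicate 2 held the highest of the 3 levels.

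HSPA5 shows this most. Its control total libraries held 184, 564 and 187 FPKM, against 137, 187 and 234 FPKM with TPR A and 174, 201 and 225 FPKM with TPR D. Apart from replicate 2 the groups overlapped. The log2 difference was -0.50 with TPR A (95% interval -1.32 to 0.31, limma adjusted p = 0.626) and -0.36 with TPR D (95% interval -1.18 to 0.46, limma adjusted p = 0.698), and without control replicate 2 it was 0.00 and 0.14. XBP1 likewise had 59.2, 144 and 43.8 FPKM in control cells, 52.96, 50.6 and 47.4 FPKM with TPR A, and 55.6, 58.4 and 47.4 FPKM with TPR D. Its log2 difference went from -0.46 to 0.01 with TPR A and from -0.35 to 0.12 with TPR D when that replicate was left out.

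DNAJB9 was the single member above control with both shRNAs. It had 7.59, 5.34 and 5.54 FPKM in control cells, 11.0, 10.2 and 7.27 FPKM with TPR A and 12.3, 8.03 and 7.13 FPKM with TPR D. The highest control library lay above the lowest library of either TPR shRNA. The log2 difference was 0.68 (SE 0.27, limma adjusted p = 0.297) and 0.62 (SE 0.27, limma adjusted p = 0.298), and 0.55 and 0.50 without control replicate 2.

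SDF2L1 was the member farthest below control with TPR A. Its total libraries held 89.8, 153 and 69.5 FPKM with control shRNA, 51.4, 63.3 and 54.5 FPKM with TPR A, and 109, 68.6 and 72.1 FPKM with TPR D. All TPR A libraries lay below all control libraries, as in 8.33% of all genes, and below all TPR D libraries, as in 7.2%. The log2 difference from control was -0.75 with TPR A (SE 0.27, limma adjusted p = 0.216), and -0.46 without control replicate 2. It was -0.20 with TPR D (limma adjusted p = 0.751), and TPR A differed from TPR D by -0.55 (limma adjusted p = 0.676). With the replicate block the adjusted p for TPR A was 0.094.

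For the other 6 genes the log2 differences in the total fraction ranged with TPR A from -0.46 for HSP90B1 to -0.12 for HERPUD1, and with TPR D from -0.42 for PDIA4 to -0.16 for HERPUD1. Without control replicate 2 they ranged with TPR A from -0.23 for HSP90B1 to -0.12 for CALR. With TPR D they then ranged from -0.25 for PDIA4 to 0.11 for CALR, and HSP90B1 and MANF were at -0.03 and -0.01. PDIA4 had 149, 219 and 138 FPKM with control shRNA and 104, 118 and 131 FPKM with TPR D, a log2 difference with a 95% interval of -0.97 to 0.14 (limma adjusted p = 0.479). PDIA4 and PDIA6 were the members whose TPR D libraries all lay below the control ones, as in 7.93% of all genes. DNAJB9 had the highest upper bounds of the 95% intervals in the total fraction, 1.24 for TPR A and 1.19 for TPR D.

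**Figure D4:**
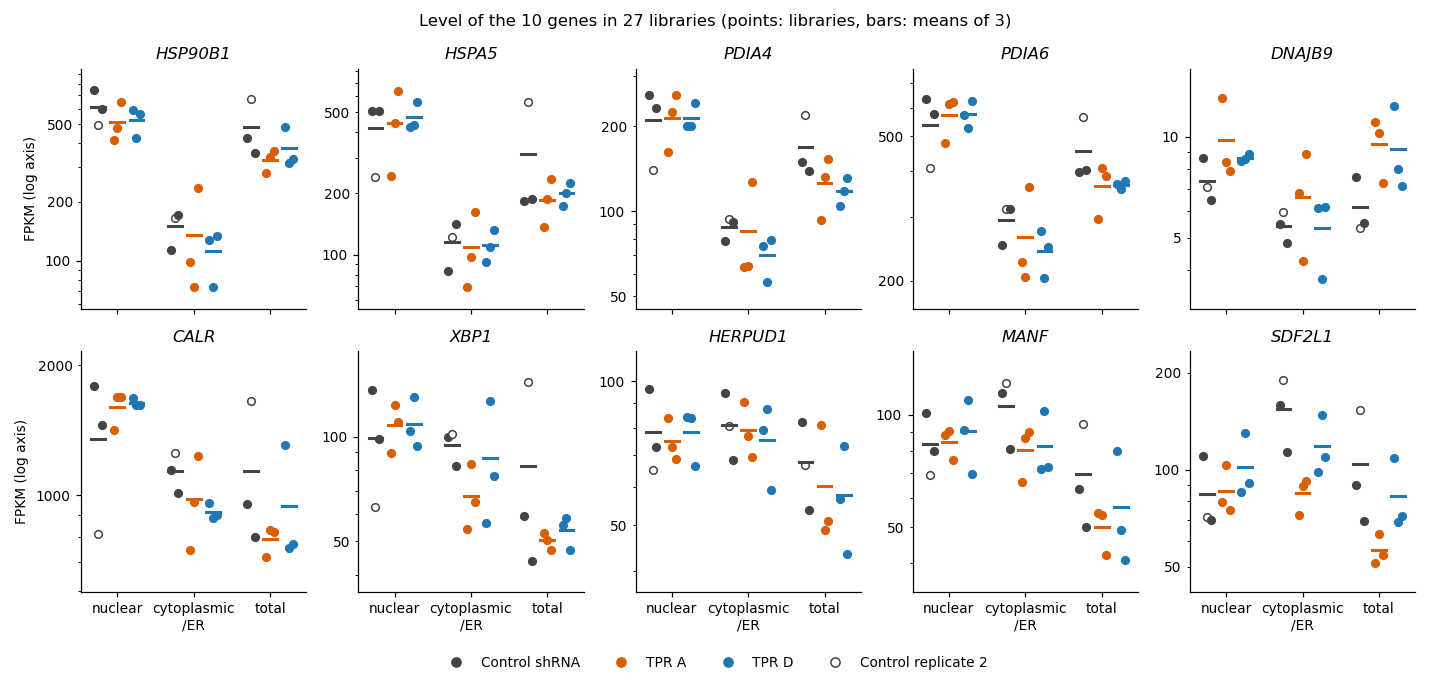
The FPKM of each gene in each of the 27 libraries is plotted on a log axis by fraction and shRNA, with bars for the means of 3 libraries and open points for control replicate 2. The open points sit high in the total and low in the nuclear fraction for genes such as HSPA5 (564 and 240 FPKM) and CALR (1655 and 814 FPKM).

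In the separated fractions no member was called either. In the nuclear fraction 0 of 10 passed with TPR A and 0 of 10 with TPR D in limma (0 and 0 at an unadjusted p under 0.05), where 0.903% and 0.479% of all genes did. The log2 differences ranged from -0.26 to 0.37 with TPR A and from -0.21 to 0.36 with TPR D. With TPR A 8 of 10 lay above 0 (median 0.06) and with TPR D 9 of 10 (median 0.16), where 48.3% and 48.8% of all genes did. Without control replicate 2 these counts turned to 1 of 10 (median -0.09) and 3 of 10 (median -0.07). In the cytoplasmic/ER fraction 0 of 10 passed with either (1 with TPR A and 0 with TPR D at an unadjusted p under 0.05), where 0.623% and 0.575% of all genes did. There 9 of 10 lay below 0 with TPR A and 10 of 10 with TPR D, where 47.3% and 47.9% of all genes lay above 0. The medians were -0.18 and -0.27 beside -0.02 and -0.02 for all genes. Without control replicate 2 the medians were -0.12 and -0.19, and 2 of 10 lay above 0 with each TPR shRNA.

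SDF2L1 had the largest of these differences. Its cytoplasmic/ER libraries held 159, 190 and 113 FPKM with control shRNA, 72.3, 88.8 and 92.6 FPKM with TPR A and 98.8, 148 and 109 FPKM with TPR D. The TPR A libraries lay below all control libraries, as in 8.62% of all genes, and below those of TPR D, as in 5.18%. The log2 difference was -0.81 with TPR A (SE 0.27, limma adjusted p = 0.184) and -0.34 with TPR D (limma adjusted p = 0.807), and -0.64 and -0.17 without control replicate 2. The range over the nuclear libraries, 69.9 to 110 FPKM with control shRNA and 75.0 to 103 FPKM with TPR A, overlapped.

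The N/C change is the log2 N/C ratio in TPR-depleted minus that in control cells. It asks whether an mRNA moved towards the nuclear fraction relative to the median gene. No member was called with TPR A, with TPR D or with both together in limma (1, 0 and 1 of 10 at an unadjusted p under 0.05), and 0% of all genes were in each of these 3 comparisons (215, 120 and 251 genes at an unadjusted p under 0.05). The main fit took the nuclear and cytoplasmic/ER libraries of a replicate as independent, though they deviated together (r 0.223 to 0.469). Leaving out this pairing can widen the SE of the N/C change, so 0 calls do not show that no mRNA moved. Under the alternatives with a test at most 1, 1 and 2 of all genes were called. The median over the 10 was 0.21 with TPR A, 0.38 with TPR D and 0.30 with both, beside 0.00, 0.00 and 0.00 for all genes. The scaling of each library by its median ratio holds the value for all genes near 0. A shift shared by most mRNAs would not show, such as the nuclear rise of poly(A) staining that the paper reports. Without control replicate 2 the medians were 0.03, 0.11 and 0.10. In replicate 1 alone they were 0.04, -0.08 and -0.02. In replicates 2 and 3 alone, which include control replicate 2, they were 0.48, 0.61 and 0.60. Spearman's rho of the N/C change with both shRNAs against pre-mRNA length was -0.50 across the 10 and -0.49 across 12333 protein-coding genes. Across the 65 other genes of the ER and unfolded protein response lists it was -0.51. These rho values describe genes measured in the same libraries, control replicate 2 included.

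SDF2L1 had an N/C change of 0.86 with TPR A (SE 0.38, limma adjusted p = 0.987), 0.64 with TPR D and 0.75 with both (SE 0.33, limma adjusted p = 0.999). All 6 TPR-depleted replicates had a higher N/C ratio than all 3 control replicates, as in 3.07% of all genes and in none of the other 9 members. Without control replicate 2 the change was 0.60, 0.38 and 0.49. CALR had 0.52, 0.65 and 0.58, which became 0.13, 0.25 and 0.19 without that replicate. XBP1 had 0.65 with TPR A, where its replicates did not overlap with the control ones (10% of all genes lay above control in this way), and 0.38 with TPR D, which became 0.31 and 0.04. HSPA5 went from 0.16 and 0.28 to -0.25 and -0.14, and PDIA4 with TPR A from 0.15 to -0.16.

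**Figure D5:**
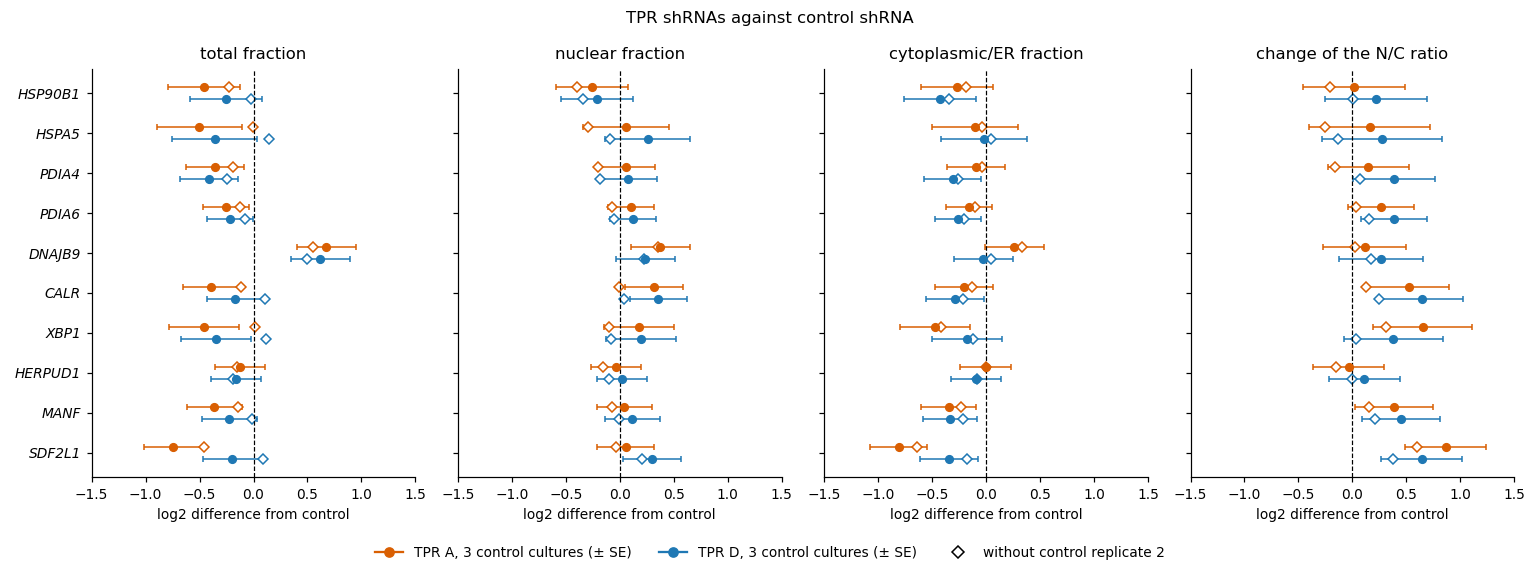
The log2 difference of TPR A and TPR D from control is plotted per gene for 3 fractions and for the N/C change, with filled points ± SE from limma on all libraries and open diamonds without control replicate 2. DNAJB9 is right of 0 in the total fraction (0.68 and 0.62), SDF2L1 is left of 0 in the total (-0.75 with TPR A) and cytoplasmic/ER fraction (-0.81 with TPR A), and most diamonds lie nearer to 0.

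The shRNAs were also compared with each other. TPR A against TPR D gave 0 called members of 10 in the total fraction (0.281% of all genes), in the nuclear fraction (0.315%), in the cytoplasmic/ER fraction (0.637%) and for the N/C ratio (0%). Leaving SDF2L1 aside, the adjusted p was above 0.9 for each member in all 4.

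Of 85 other genes in 7 lists of the pathway, 4 were called in any of the 9 comparisons with control, all lower. No gene was called with both TPR shRNAs. CANX fell in the total fraction with TPR A, from 284 ± 25.02 to 118 ± 25.3 FPKM (SD, n = 3), a log2 difference of -1.22 (limma adjusted p = 0.0492), and had -1.18 without control replicate 2 (limma adjusted p = 0.211). ERP29, a thioredoxin-like ER protein, fell with TPR D from 240 ± 45.6 to 125 ± 7.64 FPKM, a difference of -0.85 (limma adjusted p = 0.0341), and -0.73 without that replicate (limma adjusted p = 0.0393). SPCS2, a signal peptidase subunit, fell with TPR D by 1.11 on the log2 scale (limma adjusted p = 0.0426), and had -0.77 without it (limma adjusted p = 0.159). With the other TPR shRNA the total fraction differed by -0.49 for CANX, -0.62 for ERP29 and -0.38 for SPCS2 (limma adjusted p = 0.44, 0.13 and 0.56).

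HERPUD2, a homologue of HERPUD1, fell with TPR A in the nuclear fraction by 1.31 (limma adjusted p = 0.00751) and in the cytoplasmic/ER fraction by 1.13 (limma adjusted p = 0.0258) on the log2 scale. Both calls held without control replicate 2, at -1.31 and -1.19. HERPUD1 itself differed there by -0.04 and 0.00. With TPR D HERPUD2 was called in neither fraction, at -0.21 in the nuclear one (limma adjusted p = 0.878). In all, the 5 calls were 0.654% of 765 values, where 0.462% of the values of all genes in the same 9 comparisons were called. There were 3 calls among the 765 without control replicate 2, and 0.281% over all genes.

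The remaining genes at the ends of each list in the total fraction, by the mean of both shRNAs, were not called. DDIT3, the CHOP transcription factor of the PERK arm, had 6.42 ± 1.71 FPKM with control shRNA, 8.41 ± 1.85 with TPR A and 8.88 ± 3.56 with TPR D (limma adjusted p = 0.543 and 0.438). EIF2AK3 had a difference of 0.46 and 0.54, DNAJC3, a co-chaperone also called p58IPK, 0.42 and 0.65, EDEM3 0.41 and 0.73, SEC11C 0.32 and 0.44 and ERO1A, the ER oxidase, 0.11 and 0.28. At the low ends were ATF6B with -0.86 and -0.54, OS9 with -0.64 and -0.76, ASNS with -0.52 and -0.78 and HSP90AB1, the cytosolic HSP90, with -0.78 and -0.66. DNAJA1 stood highest among the cytosolic and mitochondrial chaperones with -0.11 and 0.06. Leaving out control replicate 2 moved EDEM3 to 0.13 and 0.44, DNAJC3 to 0.12 and 0.36, SEC11C to 0.12 and 0.23, DDIT3 from 0.46 and 0.50 to 0.21 and 0.26, and turned ERO1A to -0.19 and -0.02. DNAJA1 went to 0.21 and 0.38, OS9 to -0.43 and -0.54 and ATF6B to -0.64 and -0.32. ASNS and HSP90AB1 went to 0.07 and -0.14 with TPR A, and to -0.20 and -0.02 with TPR D, without control replicate 2.

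The 10 genes varied together only in part. Over 27 libraries, after the mean of each group was subtracted, 38 of 45 pairs had a Pearson r above 0, with a median of 0.23, where the median of the members with all other genes was 0.00. PDIA4 with PDIA6 had 0.94, SDF2L1 with MANF 0.87 and HSPA5 with PDIA4 0.86, while HSPA5 with HERPUD1 had -0.41. Over the 24 libraries without control replicate 2, 27 of 45 pairs were above 0, with a median of 0.20, and the 4 pairs named had 0.92, 0.83, 0.84 and -0.66. These are descriptions over libraries that share cultures and include control replicate 2. The spread between replicates was a residual SD on the log2 scale of 0.52 for HSPA5, 0.43 for HSP90B1 and 0.25 for PDIA6, and 0.41, 0.44 and 0.23 without that replicate, beside a median of 0.37 over all genes with it.

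The genes whose levels ran most like the mean of the 10 over the 27 libraries, with the mean of each fraction subtracted, were MYDGF (Pearson r = 0.87), PACC1 (0.86), NOMO1 (0.81), GLA (0.81) and PSMA2 (0.81). Over the 24 libraries without control replicate 2 these values were 0.71, 0.82, 0.61, 0.62 and 0.65.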

How the data were processed

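The authors quantified poly(A)+ reads with Salmon on Gencode protein-coding and long non-coding transcripts (hg19 in the submitters' notes), summed them to genes with tximport and deposited FPKM. No column of another sample was in the table. Here each library was scaled by its median ratio to the geometric mean library (factors 0.954 to 1.06), 0.1 was added and the log2 taken, so changes of low genes are understated. Genes with a mean above 1 FPKM outside the mitochondrial genome were kept. Levels are given as deposited. All 27 libraries in 9 groups entered limma 3.58.1 (R 4.3.3, lmFit, contrasts.fit, eBayes with trend), with Benjamini-Hochberg adjustment over 14611 genes and a threshold of 0.05. The members and lists were chosen with earlier results of these data known. Named are all members, TPR, list genes called in a TPR comparison, the ends of each list in the total fraction, and the 5 genes most like the members. The list genes named for their N/C ratio were chosen after their values were seen.

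Of the gene IDs, 32776 of 34464 matched GENCODE release 44 on GRCh37, which gave lengths and exons. Promoter sequences are RefSeq's, on GRCh38.p14, and no coordinates were converted. Read depth was estimated from the steps of low values: a gene of 1 kb effective length at 1 FPKM had 32.1 to 87.0 reads, and of 27420 values worth 1 to 5 reads 88.4% were whole to within 0.1 read. Data were simulated with independent noise and log2 changes of 2 or 3 in either direction, larger than any TPR difference of the members. From these limma recovered 186 of 200 changed genes for TPR A in the total fraction, with 8 false calls. For the N/C change it recovered 149 of 200, with 7 false calls. Recovery of smaller changes was not simulated. Replicates with the same number deviated together (r over 0.1 in each of 3 pairs) for control with TPR A in the total fraction (0.137 to 0.324) and for the nuclear and cytoplasmic/ER libraries of a replicate (0.223 to 0.469). So did TPR A with TPR D in the nuclear (0.131 to 0.266) and cytoplasmic/ER fraction (0.398 to 0.597). In the other pairs of groups not every pair did. Alternatives were FPKM as deposited, pseudocounts of 1 and 0.01, no minimum or 5 FPKM, no trend, the replicate number as a block, the culture as a random block, only the groups compared, each replicate left out, and each set of label styles alone (replicate 1, replicates 2 and 3). Python 3.11.15, numpy 2.4.6, pandas 2.3.3, scipy 1.17.1 and matplotlib 3.10.9 were used.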

Additional observations from a re-analysis of the deposited data

How the results depend on the processing

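No member was called in any of the 9 TPR comparisons with control under any of the alternatives with a test (165 comparison and alternative pairs), nor between TPR A and TPR D. Of 1740 values of single members in these comparisons under alternatives 113 changed sign, 30 of them among the 90 values without control replicate 2. With the replicate block the number of members called stayed at 0 in each TPR comparison and at 5, 5 and 6 for the N/C ratio in control, TPR A and TPR D cells, while over all genes the calls in the total fraction rose from 120 to 378 with TPR A and from 110 to 461 with TPR D. For the N/C ratio the members called when each replicate was left out numbered 4 to 5 in control, 4 to 6 in TPR A and 4 to 6 in TPR D cells. HSP90B1, HSPA5, PDIA4 and PDIA6 were called in TPR A and TPR D cells under all alternatives with a test. In control cells replicates 2 and 3 alone, control replicate 2 among them, left 2, HSP90B1 and HSPA5, and PDIA6 was lost without control replicate 1. SDF2L1 was lost without control replicate 2 and CALR was lost in TPR A cells under several alternatives. The cause was not tested. Replicate 1 alone allows no test. The lowest estimate for a member was 275 reads in a library, and whether depth limited the calls was not tested.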
